A study of Mus musculus with 37 samples.

Results

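The Hox genes of the mouse lung were read as every gene whose symbol is Hox, a cluster letter from a to d and a paralog number, and 37 of the 39 such genes had a probe set annotated to that gene alone, of 19938 genes with such a probe set. Each of the 37 had exactly 1 such probe set. Hoxb8 was read only by a probe set that it shares with Hoxb7, so it was left out. RNA was taken from the right lungs of untreated fetal and newborn mice of the inbred strains A/J and C57BL/6J (B6) and hybridized to Affymetrix Mouse Gene 1.0 ST arrays. Sampling was daily from E15.5 to E20.5 in A/J and from E15.5 to E18.5 in B6, and newborns (PN0) of both strains were added, with 3 litters in each of the 12 groups. By the study's account, PN0 came a few hours after E20.5 in A/J and a day after E18.5 in B6, so these last steps differ in length. A litter contributed 1 pool of lungs from 3 males, so the spread between animals of a litter is not seen. A/J pups are born later than B6 pups, so the strains are not of equal age at PN0. No transgene or engineered mutation is described for these mice. The comparisons ask how mRNAs change with gestational age and between strains that differ in the length of gestation.

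Hox genes encode homeodomain transcription factors that give cells their position along the body axis. They lie in 4 clusters, HoxA to HoxD, on different chromosomes, and genes at the same place in different clusters are paralogs that carry the same number. Genes of low number, at the 3' end of a cluster, are used early and toward the head, genes of high number later and toward the tail, and the Hox proteins bind DNA together with the TALE homeodomain cofactors of the Pbx, Meis and Pknox families. In the lung, Hox mRNAs are known mainly from the mesenchyme, and mice without Hoxa5 have defects of the trachea and lung and often die at birth, and lung defects are more severe in mice that also lack its paralog Hoxb5.

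Sequences of cluster members were taken from RefSeq on the mouse build GRCm38.p6. Promoter windows of the 250 bases before the annotated start were on hand for 21 of the 37 genes, with 23 windows in all because Hoxa10 and Hoxd11 each had a pair. The windows of Hoxa5 and Hoxa6, neighbours on chromosome 6, are shown because their mRNAs took different courses in A/J lungs, and that of Hoxb4 because it was the only HoxB gene with a window among those that fell. They lie at chr6:52204588-52204837 (minus strand), chr6:52208673-52208922 (minus strand) and chr11:96318017-96318266 (plus strand), and are written 5' to 3' on the strand of the gene. Capitals mark matches on either strand to AGGTCA (the half-site of retinoic acid and other nuclear receptors), CCAAT (bound by the factor NF-Y), TATAAA (the TATA box) or TGATNNAT (a Hox and Pbx site). Each of the 3 windows held 1 match, so no motifs overlapped.
Hoxa5: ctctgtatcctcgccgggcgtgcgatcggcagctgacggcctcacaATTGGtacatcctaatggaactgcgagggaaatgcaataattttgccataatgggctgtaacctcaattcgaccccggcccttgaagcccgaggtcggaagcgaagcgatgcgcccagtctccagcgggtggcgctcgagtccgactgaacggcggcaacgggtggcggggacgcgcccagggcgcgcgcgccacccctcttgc
Hoxa6: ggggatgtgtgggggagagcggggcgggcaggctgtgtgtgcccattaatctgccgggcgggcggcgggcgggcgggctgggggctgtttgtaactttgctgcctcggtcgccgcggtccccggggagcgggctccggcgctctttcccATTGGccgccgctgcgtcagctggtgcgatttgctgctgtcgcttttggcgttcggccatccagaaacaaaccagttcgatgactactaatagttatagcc
Hoxb4: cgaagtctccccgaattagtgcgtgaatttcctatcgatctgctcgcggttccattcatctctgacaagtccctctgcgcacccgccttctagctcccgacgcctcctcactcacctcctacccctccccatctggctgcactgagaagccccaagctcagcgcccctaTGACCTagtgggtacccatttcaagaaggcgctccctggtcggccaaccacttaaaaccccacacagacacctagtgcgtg
In Hoxa5 and Hoxa6 the match was to CCAAT, read on the strand opposite to the gene, and in Hoxb4 to AGGTCA, also on the opposite strand. CCAAT was found in 13 of the 23 Hox windows and in 33.8% of all 32851 promoter windows, AGGTCA in 6 and 14%, TATAAA in 3 and 12.4%, and TGATNNAT in 3 and 7.68%. The windows were rich in CpG, with 28 CpG sites in that of Hoxa5, 24 in that of Hoxa6 and 14 in that of Hoxb4 against a median of 6 over all windows. The CpG count ran from 7 to 28 sites in the 3 windows of genes above the array median in every replicate and from 2 to 35 in the 16 windows of genes above it in none.

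The clusters also hold microRNA genes. The mature products of the Mir10 and Mir196 genes fall into 2 groups by seed (bases 2 to 8, in capitals) and are shown because the hairpin genes have probe sets of their own beside the Hox probe sets. Mir10a lies between Hoxb5 and Hoxb4 and Mir10b beside Hoxd4, and their products share 1 seed. Mir196a-1 lies beside Hoxb9, Mir196a-2 beside Hoxc10 and Hoxc9, and Mir196b between Hoxa9 and Hoxa10, and their products share the other.
miR-10a-5p: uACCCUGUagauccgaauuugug
miR-10b-5p: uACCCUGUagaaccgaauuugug
miR-196a-5p: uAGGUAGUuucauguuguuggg
miR-196b-5p: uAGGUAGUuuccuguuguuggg
The probe sets of Mir10a, Mir10b, Mir196a-1, Mir196a-2 and Mir196b had mean log2 values of 3.59, 3.04, 4.25, 4.33 and 4.56, and none was above the array median in any of 36 replicates. These probe sets read the hairpin gene, not the mature microRNA, whose level was not measured.

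The values were log2 intensities after RMA, a method that corrects, normalizes and summarizes the probes of each probe set. Over all 35556 probe sets the median was 6.41, and the medians of single arrays ran from 6.34 to 6.54. An extra array of B6 E18.5, labelled 2b, was averaged with array 2 and left 36 replicates. The lung label fitted its markers, since Nkx2-1 (the transcription factor of lung epithelium) had a mean of 9.60 and Sftpc (surfactant protein C) of 13.62, and both were above the array median in 36 of 36 replicates. Of 6 thymus genes, 5 were above the median in no replicate, and the remaining one, Ptcra, in 1. The mean of 7 liver genes ran from 5.21 to 7.30 over the litters of A/J E15.5 and from 5.25 to 8.49 over those of B6 E15.5, and that of 7 genes of the esophagus and upper airway from 5.70 to 7.17 within A/J PN0. The mean of 7 heart genes was 9.92 in A/J E15.5 replicate 1 against 7.64 and 7.66 in replicates 2 and 3, and 8.72 in B6 E15.5 replicate 1 against 7.66 and 7.39. It reached 9.36 at PN0 in A/J and 9.14 in B6. Without A/J E15.5 replicate 1 the count of Hox genes called from E15.5 to PN0 in A/J was 10, and without B6 E15.5 replicate 1 that in B6 was 8, as with them, and over the omission of any 1 litter the counts ran from 8 to 12 and from 7 to 9. The part of the neighbouring tissues in the Hox values was not tested.

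Hox probe sets above the array median came from the 3' and middle parts of HoxA and HoxB. All 36 replicates were above their array median for 8 genes, namely Hoxa4, Hoxa5, Hoxa7, Hoxb2, Hoxb3, Hoxb4, Hoxb5 and Hoxb6. Some replicates were above it for 5 genes, with 19 of 36 for Hoxa2, 35 for Hoxa3, 28 for Hoxa6, 33 for Hoxb1 and 17 for Hoxb7. For the other 24 genes no replicate was above it. Among all probe sets with 1 symbol, 48.4% were above the array median in every replicate. The array median also counts probe sets without a gene symbol, and the median of those with 1 symbol was higher, at 6.96. Hoxa7 (mean 6.935) and the 5 genes above the array median in some replicates had means below 6.96. Probe sets differ in how brightly they report the same amount of RNA, so a value under the array median does not show that a gene was silent, and the values do not rank the Hox genes by mRNA.

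**Figure D1:**
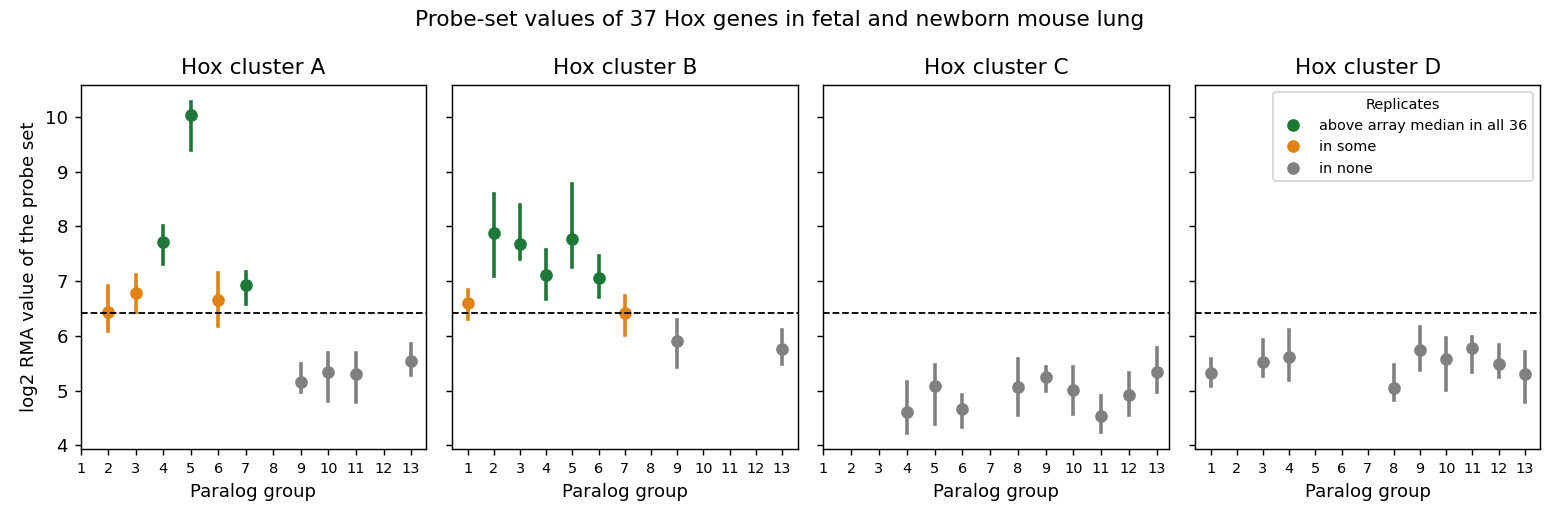
Log2 RMA value (vertical axis) of each of 37 Hox genes against its paralog group, in a panel for each cluster. The point is the mean over 36 replicates, the line runs from the lowest to the highest replicate, and the dashed line is the median of all probe sets (6.41). Every HoxC and HoxD gene and every gene of paralog groups 9 to 13 lies below the dashed line.

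By cluster, the 9 measured HoxC genes and the 9 measured HoxD genes were above the median in no replicate. In HoxA, 3 of 10 genes were above it in all replicates and 3 in some, and in HoxB 5 of 9 in all and 2 in some. By paralog group, the 16 measured genes of groups 9 to 13 were above the median in no replicate, with means from 4.54 (Hoxc11) to 5.90 (Hoxb9). Of the 12 HoxA and HoxB genes of groups 2 to 7, 8 were above the median in all replicates and 4 in some. In group 1, Hoxb1 had a mean of 6.60 and Hoxd1 of 5.33. In group 4, Hoxa4 (7.71) and Hoxb4 (7.12) were above the median in all replicates, while Hoxc4 (4.61) and Hoxd4 (5.62) were above it in none. In group 5, Hoxa5 had a mean of 10.04, 3.63 above the array median and at percentile 94.1 of all probe sets with 1 symbol. Its paralog Hoxb5 had a mean of 7.77 and Hoxc5 of 5.08.

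By an F test over the ages, nearly all Hox genes that changed fell. The share of the 37 that fell by this test was not above that of all probe sets. By the rule for pairs of ages given below, the share lower than at E15.5 was above that of all probe sets at every later age in A/J. In B6 this share was above it at E16.5 and E17.5 and slightly below it at E18.5 and PN0. At E16.5 it was 10.8% against 1.48% in A/J and 16.2% against 5.06% in B6. Of the 4 genes called there in A/J, 2 were Hoxc5 and Hoxc8, below the array median in every replicate. The others were Hoxb2 and Hoxb5. The 6 called in B6 were all HoxA or HoxB genes. At E17.5 the share was 24.3% against 15.9% in A/J and 21.6% against 16.6% in B6. Later A/J shares were 16.2% against 14.4% at E18.5, 24.3% against 21% at E19.5 and 29.7% against 22% at E20.5. At PN0 the A/J share was 27% against 21.2%. Later B6 shares were 18.9% against 19.2% at E18.5 and 21.6% against 22.4% at PN0. Whether these gaps exceed chance was not tested. In Hoxb2, Hoxb3, Hoxb5 and Hoxb6 the fall was largely over by E17.5. A gene counted as changed over time where limma's F test across the ages of a strain gave an adjusted p under 0.01 and the means differed at least 2-fold between the highest and the lowest age. By this rule 1 of 37 Hox genes changed in A/J and 1 of 37 in B6, both times Hoxb5, against 17.8% of all probe sets in A/J and 14.4% in B6. By the adjusted p alone, 9 genes changed in A/J and 9 in B6 (60% and 51.8% of all probe sets). All 9 in A/J had their largest change from E15.5 downward: Hoxa2, Hoxa6, Hoxb2, Hoxb3, Hoxb4, Hoxb5, Hoxb6, Hoxc4 and Hoxc5. In B6, 8 had it downward (Hoxa3, Hoxa5, Hoxa6 and Hoxb2 to Hoxb6), and Hoxd13, a gene of the tail and limb ends that was below the array median in every replicate, had it upward (0.27 at E16.5). From E16.5 Hoxd13 then fell by 0.51 to its lowest B6 mean at PN0, which was 5.08 against 5.33 at E15.5. Of all probe sets, 28.1% in A/J and 27.3% in B6 changed downward by the same adjusted p.

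Hoxb5, a gene of the branching lung mesenchyme, showed the largest change of the 37. In A/J its log2 values were 8.77, 8.69 and 8.48 at E15.5, 8.19, 8.03 and 8.22 at E16.5, and 7.27, 7.40 and 7.47 at E17.5. They were then 7.51, 7.54 and 7.42 at E18.5, 7.46, 7.55 and 7.46 at E19.5, 7.50, 7.46 and 7.26 at E20.5, and 7.58, 7.77 and 7.71 at PN0. In B6 they were 8.72, 8.57 and 8.62 at E15.5, 8.04, 8.05 and 7.94 at E16.5, 7.45, 7.56 and 7.59 at E17.5, and 7.46, 7.32 and 7.42 at PN0. At B6 E18.5 the 4 arrays gave 7.43, 7.17, 7.34 (array 2b) and 7.54. In each strain the 3 ages from E15.5 to E17.5 did not overlap with one another. From E17.5 on, the values of neighbouring ages overlapped except between E20.5 and PN0 in A/J. The span between the highest and lowest age was 2.41-fold in A/J (limma F test, adjusted p = 1.64e-14) and 2.36-fold in B6 (adjusted p = 4.51e-14). By step, Hoxb5 fell by 0.50 (SE 0.0849, limma adjusted p = 0.00017) and then by 0.77 (adjusted p = 3.35e-08) in A/J, and by 0.63 (adjusted p = 3.34e-06) and 0.48 (adjusted p = 0.000187) in B6. In the step from E16.5 to E17.5 Hoxb2 and Hoxb5 were called lower in both strains and Hoxb3 in A/J (11.7% of all probe sets in A/J and 6.08% in B6). The difference from E20.5 to PN0 in A/J was 0.28 (adjusted p = 0.0172), 1.21-fold and so under the fold required for a pair of ages.

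**Figure D2:**
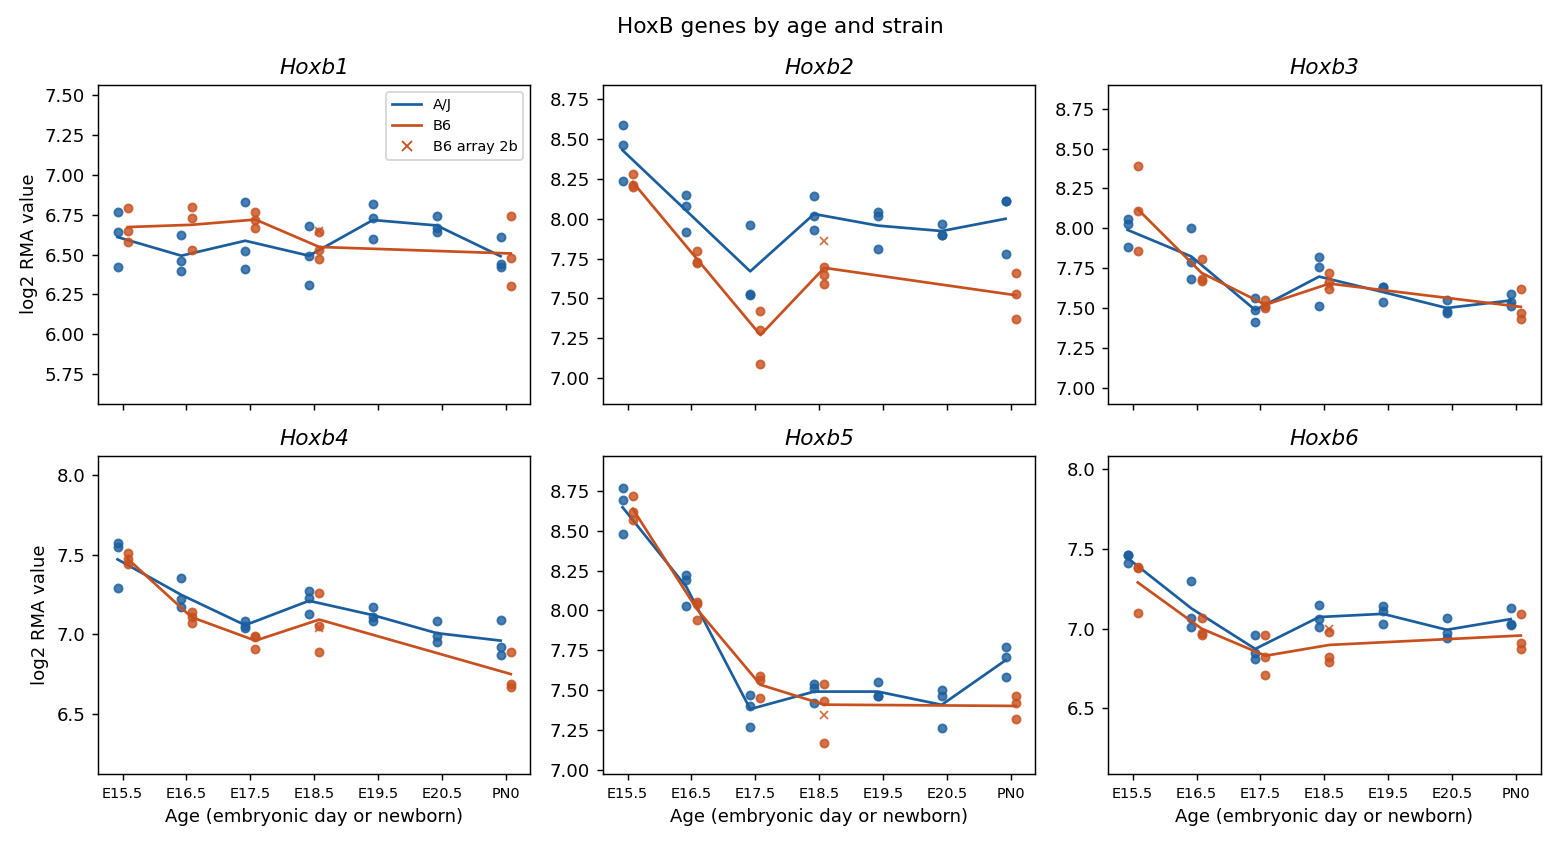
Log2 RMA value (vertical axis) by age (horizontal axis) of 6 HoxB genes in A/J (blue) and B6 (orange). Points are litters, the cross is array 2b of B6 E18.5, lines join the group means, and each panel spans the same range of 2 log2 units. Hoxb2 to Hoxb6 have their highest mean at E15.5 in both strains, and Hoxb2 has its lowest at E17.5.

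Hoxb2, a gene of the hindbrain and its crest in the early embryo, fell over the same ages and then came back in part. In A/J its values were 8.59, 8.46 and 8.24 at E15.5, 7.92, 8.08 and 8.15 at E16.5, 7.96, 7.52 and 7.53 at E17.5, and 8.02, 7.93 and 8.14 at E18.5. Later A/J values were 8.04, 7.81 and 8.02 at E19.5, 7.90, 7.97 and 7.90 at E20.5, and 7.78, 8.11 and 8.11 at PN0. In B6 they were 8.20, 8.21 and 8.28 at E15.5, 7.72, 7.73 and 7.80 at E16.5, 7.09, 7.30 and 7.42 at E17.5, and 7.66, 7.37 and 7.53 at PN0. At B6 E18.5 the 4 arrays gave 7.65, 7.59, 7.86 (array 2b) and 7.70. The E15.5 values lay above all later values of the same strain, while A/J E17.5 and E18.5 overlapped through replicate 1 at 7.96. From E15.5 to E17.5 Hoxb2 fell by 0.76 in A/J (SE 0.11, limma adjusted p = 1.1e-06) and by 0.96 in B6 (adjusted p = 2.34e-08), and its 1.95-fold span in B6 was just under the 2-fold required. From E17.5 to E18.5 it rose by 0.36 in A/J (limma adjusted p = 0.0133) and by 0.42 in B6 (adjusted p = 0.00503), the only Hox gene called higher in that step, against 19% of all probe sets in A/J and 9.22% in B6. The median of all probe sets moved by 0.12 in the same step in A/J and by -0.03 in B6.

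For pairs of ages, limma calls needed an adjusted p under 0.05 and a log2 difference of at least 0.322, the fold that the study used for transcription factors. Against E15.5, the A/J lungs of E16.5 had 4 of the 37 Hox genes lower (1.48% of all probe sets were lower), those of E17.5 had 9 (15.9%), those of E18.5 had 6 (14.4%), those of E19.5 had 9 (21%), those of E20.5 had 11 (22%) and those of PN0 had 10 (21.2%). The B6 lungs of E16.5 had 6 lower (5.06%), those of E17.5 had 8 (16.6%), those of E18.5 had 7 (19.2%) and those of PN0 had 8 (22.4%). The members called lower at PN0 made up 27% of the 37 in A/J, against 21.2% of all probe sets, and 21.6% in B6, against 22.4%. At E16.5 their share was 10.8% in A/J and 16.2% in B6. None was called higher than E15.5 at any age in A/J, where 4.04%, 13.6%, 25.4%, 20.6%, 21.4% and 21.6% of all probe sets were higher at the successive ages. In B6, Hoxc8 was higher at E17.5 (0.37, limma adjusted p = 0.0203) and no other Hox gene at any age, while the shares of all probe sets were 5.32%, 14.2%, 18.3% and 20.6%. All of these comparisons within a strain share the same 3 litters of E15.5.

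**Figure D3:**
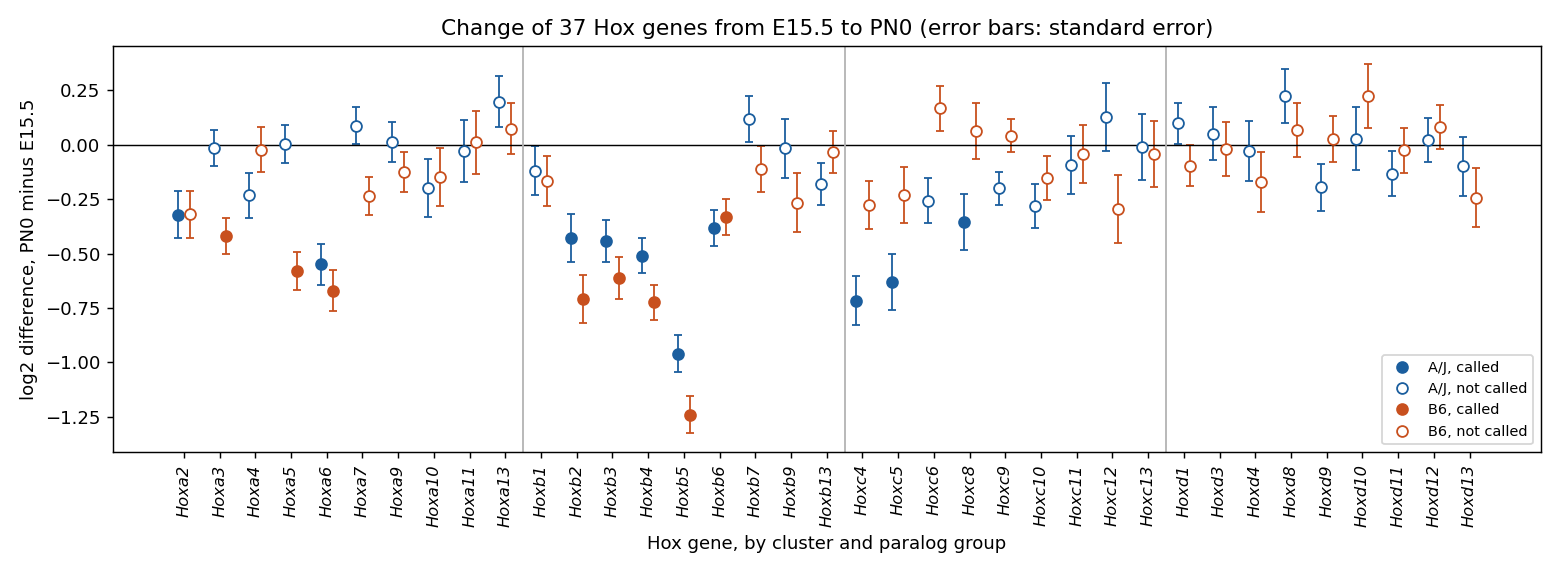
Log2 difference between PN0 and E15.5 (vertical axis) of 37 Hox genes ordered by cluster and paralog group, in A/J (blue) and B6 (orange). Error bars are the standard error of limma, and filled points passed an adjusted p under 0.05 and a log2 difference of 0.322. Filled points lie below 0 in HoxA, HoxB and HoxC, the lowest are those of Hoxb5 (-0.96 in A/J and -1.24 in B6), and no HoxD gene has one.

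From E15.5 to PN0 the adjacent genes Hoxb2 to Hoxb6, and Hoxa6, were called lower in both strains, 6 of the 10 lower in A/J and of the 8 lower in B6. Hoxb5 fell by 0.96 in A/J (limma adjusted p = 2.58e-11) and by 1.24 in B6 (adjusted p = 8.73e-14). Hoxb4 fell by 0.51 (adjusted p = 2.37e-06) and 0.72 (adjusted p = 3.68e-09), Hoxb3 by 0.44 (adjusted p = 0.000213) and 0.61 (adjusted p = 2.04e-06), Hoxb2 by 0.43 (adjusted p = 0.00133) and 0.71 (adjusted p = 1.7e-06), and Hoxb6 by 0.38 (adjusted p = 0.000244) and 0.33 (adjusted p = 0.00114). Their neighbours on either side were not called: Hoxb1 was at -0.12 in A/J and -0.17 in B6, and Hoxb7 at 0.12 and -0.11. Leaving out A/J PN0 replicate 1 put the difference of Hoxb2 in A/J at -0.32, under the fold required. In the annotation the Hoxb3 gene spans Hoxb4 and the Hoxa3 gene spans Hoxa4 to Hoxa6, and which of the overlapping transcripts a probe set read is not given.

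In Hoxb3, Hoxb4 and Hoxb6 the E15.5 values stood apart from those of E17.5 and later, by less than in Hoxb5. At E16.5 the A/J litters of Hoxb3 and Hoxb4 overlapped with those of E15.5, through E15.5 replicate 3 at 7.88 and 7.29. Those of Hoxb6 in A/J, and of all these genes in B6, did not. For Hoxb3 the 3 litters ran from 7.88 to 8.06 at E15.5 in A/J, from 7.41 to 7.56 at E17.5 and from 7.51 to 7.59 at PN0, and in B6 from 7.86 to 8.39, from 7.50 to 7.55 and from 7.43 to 7.62. Hoxb4 ran from 7.29 to 7.57, from 7.04 to 7.08 and from 6.87 to 7.09 in A/J and from 7.44 to 7.51, from 6.91 to 6.99 and from 6.67 to 6.89 in B6. Hoxb6 ran from 7.41 to 7.46, from 6.81 to 6.96 and from 7.02 to 7.13 in A/J, and from 7.10 to 7.39, from 6.71 to 6.96 and from 6.87 to 7.09 in B6. In each of these genes and strains the E15.5 litters lay above those of E17.5 and PN0, while E17.5 and PN0 overlapped in Hoxb3 and Hoxb4 in A/J and in Hoxb3 and Hoxb6 in B6. Of the called differences between PN0 and E15.5, 10 of 10 in A/J and 8 of 8 in B6 had no overlap between litters. Lower values without overlap were found for 13 Hox genes in A/J and 12 in B6, against 28.2% and 29.6% of all probe sets.

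The HoxA genes took different courses from one another. Hoxa6, next to Hoxa5 in the cluster, fell from 7.08, 7.14 and 6.87 at E15.5 to 6.43, 6.52 and 6.49 at PN0 in A/J and from 6.97, 7.03 and 6.87 to 6.19, 6.23 and 6.44 in B6, without overlap in either. Its differences were -0.55 (limma adjusted p = 9.46e-06) and -0.67 (adjusted p = 3.63e-07). It was called lower by E16.5 in B6 (-0.33, adjusted p = 0.0172), and in A/J from E19.5 on (-0.38, adjusted p = 0.000959). Hoxa2 fell by 0.323 from E15.5 to PN0 in A/J (adjusted p = 0.012) and differed by -0.32 in B6 (adjusted p = 0.0129), just inside the fold required in A/J and just outside it in B6. Its largest change from E15.5 was -0.61 at E20.5 in A/J and -0.41 at E17.5 in B6, and it was called lower in both. At PN0 Hoxa7 was at 0.09 in A/J and -0.24 in B6, and Hoxa4 at -0.23 and -0.02, none of them called. In A/J the largest change of Hoxa4 from E15.5 was -0.337 at E17.5, where it was called lower.

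Hoxa5, the Hox gene with the best known part in lung development, stayed near its E15.5 level in A/J, with its largest change at E20.5 (-0.203, not called). In B6 most of its fall came between E18.5 and PN0, and no B6 litters were taken between these ages. In A/J its values were 10.11, 10.12 and 10.11 at E15.5, 10.14, 10.12 and 10.05 at E16.5, 10, 9.91 and 9.93 at E17.5, and 10.07, 10.21 and 10.04 at E18.5. They were 10.28, 9.99 and 10.19 at E19.5, 10.02, 9.83 and 9.88 at E20.5, and 10, 10.13 and 10.22 at PN0. In B6 they were 10.25, 10.25 and 10.15 at E15.5, 10.13, 10.07 and 10.10 at E16.5, 9.93, 10.06 and 10.06 at E17.5, and 9.83, 9.40 and 9.68 at PN0. At B6 E18.5 the 4 arrays gave 10.03, 10, 10.10 (array 2b) and 10.26. The 3 B6 litters of PN0 lay below every other B6 litter, and below the 3 A/J litters of PN0. The A/J difference between PN0 and E15.5 was 0.00333 (SE 0.0885, limma adjusted p = 0.981). In B6 Hoxa5 fell by 0.58 over the same ages (adjusted p = 1.27e-06), of which 0.48 came between E18.5 and PN0 (adjusted p = 0.000107). Hoxb4 also fell in that step in B6, by 0.34 (adjusted p = 0.00157), and these 2 were the Hox genes called lower there, against 10.6% of all probe sets.

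**Figure D4:**
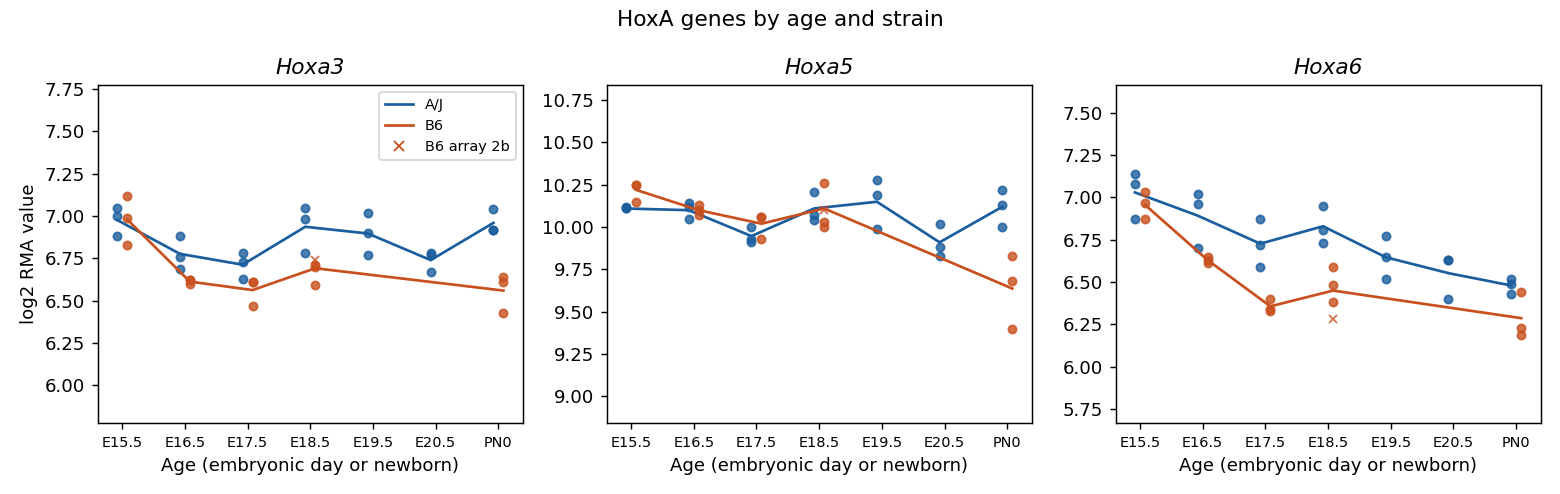
Log2 RMA value (vertical axis) by age (horizontal axis) of 3 HoxA genes in A/J (blue) and B6 (orange). Points are litters, the cross is array 2b of B6 E18.5, lines join the group means, and each panel spans the same range of 2 log2 units. Hoxa5 is lowest in B6 at PN0, where the 3 litters run from 9.40 to 9.83, and Hoxa6 is lower at PN0 than at E15.5 in both strains.

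Hoxa3, which patterns the pharyngeal arches and the thymus, was also lower at PN0 in B6 but fell earlier there, by 0.37 from E15.5 to E16.5 (limma adjusted p = 0.00222). In A/J its litters ran from 6.88 to 7.05 at E15.5 and from 6.92 to 7.04 at PN0, and in B6 from 6.83 to 7.12 and from 6.43 to 6.64. The difference between PN0 and E15.5 was -0.02 in A/J (limma adjusted p = 0.893), and in B6 Hoxa3 fell by 0.42 (adjusted p = 6.03e-05). The change from E15.5 to PN0 was compared between the strains directly, a test added after the data had been seen. It was lower in B6 by 0.58 for Hoxa5 (SE 0.125, adjusted p = 0.00396) and by 0.40 for Hoxa3 (SE 0.117, adjusted p = 0.0345). These were 2 of 37 Hox genes, against 5.88% of all probe sets by the rule for pairs. Hoxa2, called lower at PN0 in A/J alone, had a difference of 0.00333 in this test (adjusted p = 0.993).

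In HoxC, Hoxc4, Hoxc5 and Hoxc8 were called lower at PN0 in A/J, although they were below the array median in every replicate. Hoxc4 fell by 0.72 in A/J (limma adjusted p = 1.87e-06), from 4.94 to 5.16 over the litters of E15.5 to 4.23 to 4.49 at PN0, and differed by -0.28 in B6 (adjusted p = 0.0387, under the fold required). Hoxc5 fell by 0.63 in A/J (adjusted p = 9.75e-05) and was at -0.23 in B6 (adjusted p = 0.136). Hoxc8 fell by 0.36 in A/J (adjusted p = 0.0205) and was at 0.06 in B6. The difference in the change between strains was not called for Hoxc4 (0.44, limma adjusted p = 0.0978), Hoxc5 (0.40, adjusted p = 0.222) or Hoxc8 (0.42, adjusted p = 0.192). In HoxD no gene was called between PN0 and E15.5 by limma in either strain, with differences from -0.20 to 0.22 in A/J and from -0.24 to 0.22 in B6, and none had an unadjusted p under 0.05.

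The mean of the 8 genes above the array median in every replicate was 8.12 ± 0.0769 (SD, n = 3) at E15.5, 7.62 ± 0.0244 at E17.5 and 7.77 ± 0.0501 at PN0 in A/J. In B6 it was 8.10 ± 0.0489, 7.59 ± 0.0282 and 7.54 ± 0.0709. The mean of the other 29 genes stayed between 5.44 and 5.59 in all 12 groups. Whole lung RNA does not tell a fall in the share of Hox-expressing cells from less mRNA per cell. The mean of 14 mesenchymal genes (among them Tcf21, Foxf1 and Col1a1) was 9.78 at E15.5, 9.90 at E17.5 and 9.74 at PN0 in A/J, and 9.84, 9.87 and 9.52 in B6. From E15.5 to E17.5, 4 of the 14 were called higher and 1 lower in A/J (median -0.0616), and 1 higher and 1 lower in B6 (median -0.1). Of all probe sets, 13.6% were higher and 15.9% lower in A/J at that age, and 14.2% and 16.6% in B6. The mean of 8 smooth muscle genes (among them Acta2 and Myh11) went from 9.06 (8.98 to 9.15 over the litters) at E15.5 to 8.75 (8.64 to 8.91) at E17.5 and 9.25 at PN0 in A/J. In B6 it went from 8.95 (8.87 to 9.01) to 8.57 (8.45 to 8.70) and 8.88, so in both strains the litters of E15.5 and E17.5 did not overlap, with 2 genes called lower in A/J and 3 in B6. The mesenchymal mean of the 3 litters at PN0 ran from 9.70 to 9.78 in A/J and from 9.49 to 9.57 in B6. Of the 14 mesenchymal genes, A/J had 4 called higher and 6 called lower at PN0 than at E15.5 (21.6% and 21.2% of all probe sets), and B6 had 3 and 8 (20.6% and 22.4%). The mean of 9 lung epithelial genes rose from 9.60 to 10.9 in A/J and from 9.73 to 10.8 in B6, and all 7 measured cell cycle genes fell, with a median of -3.21 in A/J and -2.53 in B6. The part of these shifts in the Hox values was not tested.

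Between the strains, no Hox gene was called over the shared fetal ages together (E15.5 to E18.5), against 4.98% of all probe sets. By limma's adjusted p alone, 10 of 37 differed (38.6% of all probe sets), and 12 had an unadjusted p under 0.05. Lower in B6 were Hoxa3, Hoxa6, Hoxa7, Hoxb2, Hoxb6 and Hoxc4, and higher were Hoxa9, Hoxa11, Hoxc8 and Hoxd9. The latter 4 and Hoxc4 had all replicates below the array median. The largest difference was that of Hoxb2, at -0.31 (SE 0.0551, adjusted p = 6.65e-05), just under the fold required, followed by Hoxa6 at -0.27 (adjusted p = 5.34e-05). The median of all probe sets was -0.03 in this comparison.

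**Figure D5:**
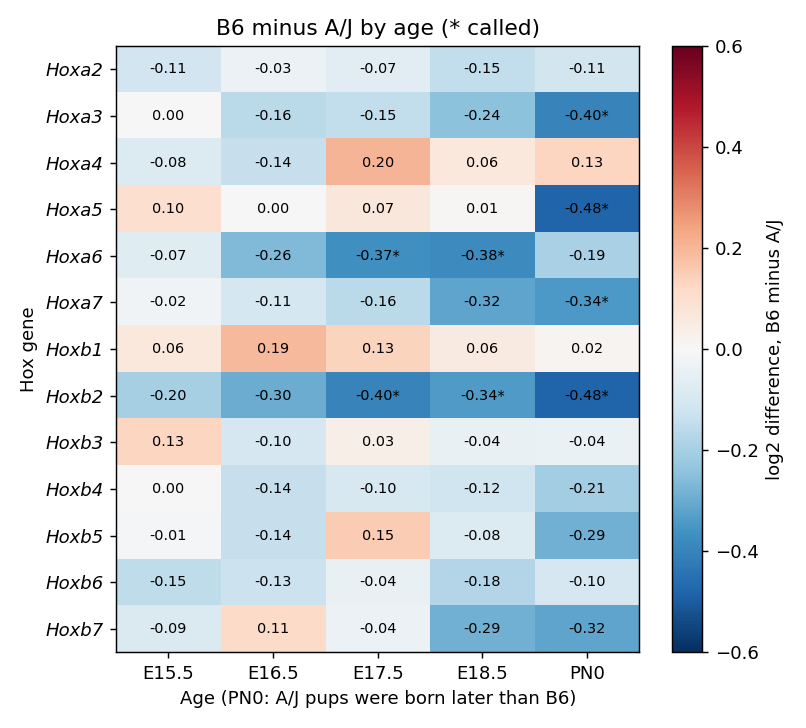
Log2 difference, B6 minus A/J (colour and printed value), of the 13 Hox genes above the array median in some or all replicates, at each of 5 ages. Stars mark an adjusted p under 0.05 and a log2 difference of at least 0.322. Hoxb2 is below 0 at all 5 ages, from -0.20 at E15.5 to -0.48 at PN0, and Hoxa5 departs from 0 at PN0 (-0.48).

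Age by age, Hoxc4 was lower in B6 at E15.5 (-0.41, limma adjusted p = 0.0384), Hoxc8 higher at E16.5 (0.54, adjusted p = 0.00927), Hoxa6 and Hoxb2 lower at E17.5 (-0.37, adjusted p = 0.0113, and -0.40, adjusted p = 0.018) and Hoxa6, Hoxb2 and Hoxc10 lower at E18.5. Of all probe sets, 0.978% were lower at E15.5, 2.77% higher at E16.5, 4.43% lower at E17.5 and then 17.2% lower at E18.5. At E18.5 the median of all probe sets was -0.13, and Hoxa6 was at -0.38 (adjusted p = 0.00326) and Hoxb2 at -0.34 (adjusted p = 0.0195). For Hoxb2 the B6 litters lay below the A/J litters on each day from E16.5 to E18.5 and overlapped with them at E15.5, where B6 ran from 8.20 to 8.28 and A/J from 8.24 to 8.59. When B6 at E18.5 was set against A/J at E19.5, a day older, limma called none of the 37 (7.61% of all probe sets, and 8 of the 37 had an unadjusted p under 0.05), and Hoxc10 was at -0.32 (adjusted p = 0.0414).

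At PN0, with A/J pups older at birth, limma called 4 Hox genes lower in B6 (9.29% of all probe sets): Hoxa5 (-0.48, adjusted p = 0.000195), Hoxb2 (-0.48, adjusted p = 0.00196), Hoxa3 (-0.40, adjusted p = 0.000686) and Hoxa7 (-0.34, adjusted p = 0.0044). Set against A/J at E19.5 instead, B6 at PN0 was lower for 5 (12.9% of all probe sets), namely Hoxa5 (-0.52, adjusted p = 3.37e-05), Hoxb2 (-0.44, adjusted p = 0.00267), Hoxb4 (-0.37, adjusted p = 0.000631), Hoxa6 (-0.36, adjusted p = 0.00398) and Hoxa3 (-0.34, adjusted p = 0.00206). That comparison was added after the data had been seen.

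A change of the strain difference across the 4 shared fetal ages was called by limma for 1 of 37 Hox genes, Hoxc10, against 4.8% of all probe sets, and 3 had an unadjusted p under 0.05. Hoxc10, a gene of the lumbar region that was below the array median in every replicate, differed by -0.02, 0.12 and 0.07 at the first 3 of these ages and by -0.47 at E18.5 (interaction adjusted p = 0.0336). Its B6 E18.5 arrays gave 4.90, 5.08, 4.53 (array 2b) and 4.57 against 5.18, 5.44 and 5.05 in A/J, and the interaction was no longer called with array 2b left out, arrays centred, quantile normalization, all probe sets tested or dim probe sets left out.

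Genes that work with or on the Hox clusters were counted from E15.5 to PN0 by the rule for pairs of ages, by which 21.6% of all probe sets rose and 21.2% fell in A/J, and 20.6% and 22.4% in B6. Of 8 measured TALE cofactors, A/J had 3 that rose and 3 that fell, and B6 had 1 and 3. Meis1 fell by 0.59 and 0.97 (limma adjusted p = 7.13e-09 and 1.72e-13), Pknox1 fell by 0.86 and 0.89, and Pknox2 rose by 1.12 and 1.1. Of 19 measured Polycomb genes, whose complexes keep Hox genes silent, A/J had 2 that rose and 8 that fell (21.2% of all probe sets fell), and B6 had 4 and 12 (22.4%). In A/J and B6 respectively, Ezh2, the histone methyltransferase, fell by 1.60 and 1.82, Mtf2 by 1.03 and 1.62, Cbx2 by 1.1 and 1.01, and Suz12 by 0.74 and 0.70. Of 10 Trithorax and MLL genes, which keep Hox genes active, 1 rose and 5 fell in each strain (21.2% of all probe sets fell in A/J and 22.4% in B6), with Psip1 at -1.25 and -1, Wdr5 at -0.69 and -0.62, Ash2l at -0.52 and -0.74, and Rbbp5 at -0.37 and -0.77.

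Retinoic acid turns on Hox genes of low number through its receptors. Of 13 genes of its synthesis, breakdown, binding and receptors, 3 rose and 4 fell in each strain, near the shares of all probe sets (21.6% and 21.2% in A/J, 20.6% and 22.4% in B6). In the same order, Aldh1a1, a retinaldehyde dehydrogenase, rose by 2.10 and 1.65, and the receptor gene Rara rose by 0.74 and 0.57. The receptor gene Rarb fell by 1.35 (limma adjusted p = 2.97e-12) and 1.34 (adjusted p = 3.74e-12), and Crabp2, a binding protein, by 0.54 and 0.58. None of 9 Cdx, Evx and ParaHox genes, the homeobox relatives nearest to the Hox clusters in sequence or place, was called in either strain.

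Of 9 measured noncoding RNA genes of the clusters, 1 fell in A/J and 2 fell in B6, against 21.2% and 22.4% of all probe sets. Hoxaas2, an antisense RNA within Hoxa3, was above the array median in 15 of 36 replicates and fell by 0.57 in B6 (limma adjusted p = 0.000164). The other calls were Mir196b in A/J (-0.35, adjusted p = 0.0125) and Mir196a-1 in B6 (-0.43, adjusted p = 0.0119), both below the array median throughout. Mir615, which lies within Hoxc5, had a mean of 7.15 and was above the median in 36 of 36 replicates, while Hoxc5 was above it in none.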

How the data were processed

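The authors deposited log2 intensities after RMA in Affymetrix Expression Console 1.1, per the labels, rounded to 2 decimals, for 37 arrays of 12 groups. They were used as deposited. RMA normalizes across arrays and pulls dim probe sets together, so changes of dim genes are understated. Of 35556 probe sets, 21789 had 1 gene symbol, 1621 several and 12146 none. The former were tested with limma 3.58.1 in R 4.3.3, with a mean for each group, 24 residual degrees of freedom and a prior of 6.13, and Benjamini-Hochberg adjustment over all 21789. The F test over ages stands in for the functional Bayesian model of the study. Arrays 2 and 2b of B6 E18.5 correlated at r = 0.988 and were averaged. Groups came from sample titles, and p-values measure the spread between litters. The precision is limited by 3 litters a group. The members, gene lists and rule for named genes (those called, the rest by group, up to 4 of each other list called in both strains) were chosen with earlier results of these data known. Sequences came from RefSeq tables, read with Python 3.11.15, and figures were drawn with matplotlib 3.10.9. The script was checked on simulated data.
Alternatives tried were arrays centred on their median, quantile normalization, all probe sets, no dim probe sets, array weights and limma's trend and robust options. Further ones were each strain fitted on its own, array 2b left out or kept as its own replicate, and other fold thresholds. The replicate block and each replicate left out were also tried. 1 further member of the gene set is not reported here.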

Additional observations from a re-analysis of the deposited data

Results flagged for a closer look

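Hoxa5 and Hoxa3 stood out because their change from E15.5 to PN0 differed between the strains in a test of the difference itself (limma, B6 minus A/J): the log2 value was -0.583 for Hoxa5 (adjusted p = 0.00396) and -0.403 for Hoxa3 (adjusted p = 0.0345). PN0 is an earlier day after conception in B6 than in A/J, so strain and age cannot be told apart there. Hoxc10 stood out because its strain difference changed across the shared fetal ages (limma, adjusted p of the interaction 0.0336), a call that was lost with arrays centred, after quantile normalization, with all probe sets tested, without dim probe sets and without array 2b.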

How the results depend on the processing

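The counts of Hox genes called from E15.5 to PN0 were 10 for A/J and 8 for B6, or 3 and 5 at 1.5-fold. They ran from 8 to 12 in A/J and from 7 to 9 in B6 when each replicate was left out in turn, 36 in all. The count changed over time was 1 in A/J under each omission and 1 to 2 in B6 (2 without B6 E17.5 replicate 3, and 2 with arrays centred on their median). With the fold used for pairs of ages, or none, it was 9 in each strain. For the strain difference over the fetal ages, 0 became 10 with no fold threshold and 0 to 1 over the omissions (1 being Hoxb2, at up to -0.333, without A/J replicate 3 of E15.5, 1 of E16.5, 2 or 3 of E17.5 or 2 of E18.5, or without B6 E17.5 replicate 3). The added comparison of B6 PN0 with A/J E19.5 gave 5. For the strain by age interaction, 1 became 0 with arrays centred, after quantile normalization, with all probe sets tested, without dim probe sets or without array 2b, 2 with array weights and 2 in the added comparison of the change to PN0, and ran from 0 to 2 over the omissions, 8 of which moved it. The causes were not tested.

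The differences of single genes kept both their call and their sign in 558 of 574 recomputations. A call was lost in 6 and gained in 7, and the sign changed in 3. Hoxa5 in A/J, near 0 and not called, was at -0.00333 with arrays centred and ran from -0.0483 to 0.0617 over the omissions. Replicate numbers did not pair the samples, since deviations of equal numbers in different groups had a median r of -0.0152, and with the replicate block the counts over time were 1 in A/J and 1 in B6, from E15.5 to PN0 10 and 8, between strains 0 and for the interaction 1. The lowest probe set of a gene was not run as an alternative, since each Hox gene had 1. Most Hox probe sets lay below the array median, where a change cannot be told from a change of background, and 3 litters a group left a standard error near 0.1 for a difference.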
